A study of Mus musculus with 87 samples.

Results

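ETn elements are long terminal repeat (LTR) retrotransposons of the mouse. They encode no proteins of their own and move with proteins supplied by related ETnERV (MusD) elements. New copies enter the germ line from time to time and then segregate like any other allele, so inbred strains, and substrains of 129, carry partly different sets of ETn insertions. KRAB zinc finger proteins bind such elements in the early embryo and silence them, and the clusters deleted in these mice, Chr2-cl on chromosome 2 and Chr4-cl on chromosome 4, encode many of these proteins.

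The ETn loci described here differ between the mixed C57BL/6 (B6) and 129 backgrounds on which the deletions were kept. A locus is a region where uniquely mapped reads lie whose mates map to an ETn, in DNA captured with probes for the LTR ends. The Chr2-cl line, with a strain label that names B6, 129/Sv and 129/Sv-CP, gave 8 libraries from 5 Chr2-cl KO/KO, 1 KO/WT and 2 WT mice (6 ear and 2 tail samples). The Chr4-cl line, labelled B6x129X1/SvJ (F1), gave 13 libraries from 2 KO/WT, 4 KO/KO, 3 WT and 4 second generation KO/KO (F2) mice (6 ear, 5 tail and 2 blood samples). The Chr2-cl deletion was made in R1 embryonic stem (ES) cells, which are of 129 origin, and the Chr4-cl deletion in B6 ES cells. Heterozygous clones went into B6 blastocysts. By descent the Chr2-cl deletion therefore lies on a 129 chromosome and the Chr4-cl deletion on a B6 chromosome, and no animal of either line is of an inbred 129 strain. Within the Chr4-cl line 7 mice are offspring of the pair T3913 and T3921 and 4 are offspring of T09673 and T00869, so these animals are relatives. The labels give no parents for the 8 Chr2-cl mice and no ages.

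Each count was scaled to 1000000 reads of its library (RPM). Presence needed 10 RPM, equal to 6.94 to 9.02 reads in these libraries, and such a locus is said to be called. It was supported in a line when at least 2 of its libraries held 100 RPM or more. A one-sided locus was supported in 1 line and lay below 10 RPM in every library of the other. Of 5018 loci in the whole series, 2273 were supported in either line. The rule picked 64 of them, 22 present in Chr2-cl mice alone, which is 0.968% of the supported loci, and 42 present in Chr4-cl F1 mice alone, which is 1.85%. The 16 libraries labelled B6 were used to sort loci by origin. They are not plain wild-type animals, since 12 are from Chr4-cl KO/KO mice, 2 from Chr4-cl KO/WT ES cells and 2 from Chr4-cl WT mice. A locus called in none of them is termed a non-B6 locus, 1 called in all of them a B6 locus, and 1 called in some of them a mixed locus.

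The depth of the 21 libraries ran from 693512 to 902477 ETn-paired reads. Each of them called 97.9 to 99.9% of the 2345 loci that no B6 library lacked. The files do not cover the deleted gene clusters as such, so they check the genotype labels only through ETn loci of the same chromosome. On chromosome 4, the 3 Chr4-cl WT mice called 5, 1 and 2 of 15 B6 loci that vary among Chr4-cl F2 animals, while the 10 mice with a Chr4-cl deletion called 12 to 15. On chromosome 2, the 6 mice with a Chr2-cl deletion called 2 or 3 of 3 non-B6 loci and both WT mice called 1. The 5 variable B6 loci of chromosome 2 did not separate the genotypes, with 2 to 5 of them called in mice with the deletion and 2 or 3 in WT mice.

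The sequences below show what a one-sided locus looks like. The capture probes match the LTR ends, and the most repeated probe of each end is printed first with the terminal bases of the LTR in capitals. The next sequence is a B6 locus on chromosome 7 that the mm9 reference holds, with the stretch that matches an LTR probe in capitals. It matches a probe for the 3′ end on the minus strand with 99.2% identity over 120 bases. The last 4 are the middle 120 bases of 4 one-sided non-B6 regions, where the reference holds no ETn LTR end. The insertion point itself is not given by the files and may lie outside these bases.
LTR 5′ end probe: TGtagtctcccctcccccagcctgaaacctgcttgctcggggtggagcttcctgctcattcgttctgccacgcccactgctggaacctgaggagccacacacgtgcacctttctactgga
LTR 3′ end probe: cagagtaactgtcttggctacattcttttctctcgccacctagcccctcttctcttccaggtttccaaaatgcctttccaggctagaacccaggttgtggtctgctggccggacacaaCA
B6 locus, mm9 chr7:70969876-70970055, plus strand: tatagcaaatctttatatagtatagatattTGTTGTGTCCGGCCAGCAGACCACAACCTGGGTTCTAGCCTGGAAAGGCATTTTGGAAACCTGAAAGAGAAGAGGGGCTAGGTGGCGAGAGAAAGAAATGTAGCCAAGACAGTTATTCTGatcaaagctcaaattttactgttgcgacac
Chr2-cl only, mm9 chr7:47041173-47041292, plus strand: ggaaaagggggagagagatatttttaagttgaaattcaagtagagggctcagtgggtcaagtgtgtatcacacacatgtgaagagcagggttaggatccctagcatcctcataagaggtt
Chr2-cl only, mm9 chr13:101613236-101613355, plus strand: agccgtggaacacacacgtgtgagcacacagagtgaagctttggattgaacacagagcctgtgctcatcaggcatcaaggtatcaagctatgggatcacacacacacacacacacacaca
Chr4-cl F1 only, mm9 chr9:76207099-76207218, plus strand: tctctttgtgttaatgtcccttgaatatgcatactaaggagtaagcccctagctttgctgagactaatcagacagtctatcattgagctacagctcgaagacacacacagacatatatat
Chr4-cl F1 only, mm9 chr9:71267726-71267845, plus strand: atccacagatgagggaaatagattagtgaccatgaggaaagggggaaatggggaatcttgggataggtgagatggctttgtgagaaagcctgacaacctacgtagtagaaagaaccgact

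The whole set followed these examples. A match to an ETn LTR probe of at least 100 bases and 90% identity was found in the reference, within 1000 bp, at 2172 (92.6%) of the 2345 loci present in all B6 libraries. None of the 97 non-B6 loci supported in either line had such a match, and none of the 20 mixed one-sided loci had one. The B6 reference therefore holds no ETn LTR end of this kind at any of the one-sided loci.

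Of the 97 supported non-B6 loci, 53 were shared by the lines, 15 (15.5%) were present in Chr2-cl mice alone and 29 (29.9%) in Chr4-cl F1 mice alone. All 2099 supported loci that every B6 library called were shared, and 0 were one-sided in either direction. On the side of the Chr4-cl F1 line this count rests on T00869. This mouse alone called the neighbouring B6 loci chr11:9869763-9872686 and chr11:9875239-9877358, with 19.01 and 23.08 RPM, while 5 Chr2-cl mice carried both. Its parents T3913 and T3921 called neither locus, and the source of its 14 and 17 reads there was not tested. Without T00869 the number of B6 loci absent from the Chr4-cl F1 line was 2, and with a call at 20 RPM it was 1. The remaining 20 one-sided loci, 7 in Chr2-cl and 13 in Chr4-cl F1, were of the mixed class. Because the rule fixes presence and absence in these 21 libraries, the counts are a description and were not tested.

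The 39 main libraries of the Chr4-cl B6/129 F2 animals took no part in choosing the one-sided loci. These animals, 19 Chr4-cl KO/KO, 12 KO/WT and 8 WT, come from a further cross of the Chr4-cl line to 129X1/SvJ, so they share its 129 descent. Each of the 29 loci of the Chr4-cl F1 line was called in at least 16 of the 39 F2 libraries, with a median of 31, and 9 were called in all 39. None of the 15 Chr2-cl loci was called in any of them. The highest level of a Chr2-cl locus in an F2 library was 8.09 RPM, and these loci lie in a few linked runs rather than being 15 separate trials. The 53 shared loci were called in 24 to 39 F2 libraries.

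The Chr2-cl loci had 4 to 7 carriers among the 8 mice, and no locus was carried by all of them. The locus with the most carriers was chr7:47040141-47042324, between genes and 193091 bp from the predicted gene Gm2058. It held 269 RPM in C6771, 252 in C6773, 274 in C6774, 270 in C6734, 359 in C6735, 339 in C6766 and 251 in C6768, against 1.13 in C6736. Of the 13 Chr4-cl F1 mice 12 held no read there and T00869 held 1.36 RPM, as low as the rule requires.

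Several Chr2-cl loci lie on chromosome 13, and they fall into a proximal and a distal set with different carriers. At chr13:101612612-101613980, which is 9229 bp from Slc30a5, a zinc transporter gene, C6773, C6774, C6734, C6735, C6736 and C6766 held 338, 352, 306, 371, 322 and 224 RPM. C6771 held no read and C6768 held 1.15 RPM. The same 6 mice carried chr13:87212709-87214970, whose nearest protein-coding gene is Cox7c, a subunit of cytochrome c oxidase, with 243 ± 39.2 RPM (SD, n = 6). They also carried chr13:68215173-68216369, nearest to BC048507, with 129 ± 17.8 RPM (SD, n = 6).

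The 3 proximal loci of chromosome 13 had 4 other carriers in common, C6774, C6734, C6766 and C6768. At chr13:11371737-11373456, 271913 bp from Ryr2, a calcium release channel of the heart, they held 300, 306, 293 and 315 RPM. At chr13:15933997-15934942, 112137 bp from Gli3, a transcription factor of Hedgehog signalling, they held 263, 263, 262 and 267 RPM. The third, chr13:17750961-17752253, lies in an intron of 5033411D12Rik and is the only one of the 15 Chr2-cl loci inside a gene. It held 231 ± 15.5 RPM (SD, n = 4) in the same carriers.

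On chromosome 10, C6773, C6774, C6734, C6736 and C6768 carried chr10:44283419-44284686, which is 35111 bp from Prdm1, a transcriptional repressor that drives plasma cell and germ cell fates. They held 256, 239, 224, 229 and 253 RPM, and C6771, C6735 and C6766 held no read. The same 5 mice carried the second Chr2-cl locus of that chromosome, chr10:23388320-23388979. Of the 4 loci on chromosome 18, the 1 with the most carriers was chr18:55373550-55375433, nearest to Zfp608, with 213 ± 7.82 RPM (SD, n = 6). C6735 and C6736 held no read there.

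The Chr4-cl F1 loci had 7 to 13 carriers among 13 mice. Both parents T3913 and T3921 carried all 29. The loci with the most carriers were on chromosome 9, where all 6 supported non-B6 loci were of this class. At chr9:76206007-76208310, 34621 bp from Hcrtr2, an orexin receptor gene, all 13 mice held 236 to 362 RPM with a median of 248, and the 8 Chr2-cl mice held 0 to 3.4 RPM. At chr9:71266748-71268823, nearest to Grinl1a, the 13 mice held 198 to 308 RPM with a median of 232, and Chr2-cl mice held 2.27 RPM at most.

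The brightest of the class was chr9:55737075-55739277 in an intron of Scaper, a gene for a cyclin A-binding protein. It held 287 to 498 RPM in 12 mice and 4.24 RPM in C6427. Further up the chromosome, chr9:22201227-22204007 was carried by 12 mice with 190 to 319 RPM. It lies 7576 bp from Anln, which encodes the cytokinesis protein anillin, and was missing in T00435 alone. The only one-sided non-B6 locus that overlaps an exon was chr9:30878009-30880591, over the UTR of Zbtb44, a zinc finger transcription factor gene. It held 260 ± 37.3 RPM (SD, n = 10) in its carriers and no more than 6.80 RPM in Chr2-cl mice.

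Chromosome 7 carried 6 of these loci with starts from 54586495 to 86621787, and all 6 had the same 12 carriers, with T00464 the mouse without them. One of them, chr7:54586495-54588336, lies 1908 bp from Mrgpra1, a receptor gene of sensory neurons. It held 213 to 400 RPM in the 12 carriers and no read in T00464. Its highest level in a Chr2-cl mouse, 7.93 RPM in C6736, was the highest of any one-sided locus on its absent side. On the X chromosome all 5 supported non-B6 loci were of the Chr4-cl F1 class. At chrX:137805484-137807222, in an intron of Col4a6, a type IV collagen gene, 12 mice held 216 to 338 RPM and the male T00464 held no read.

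**Figure D1:**
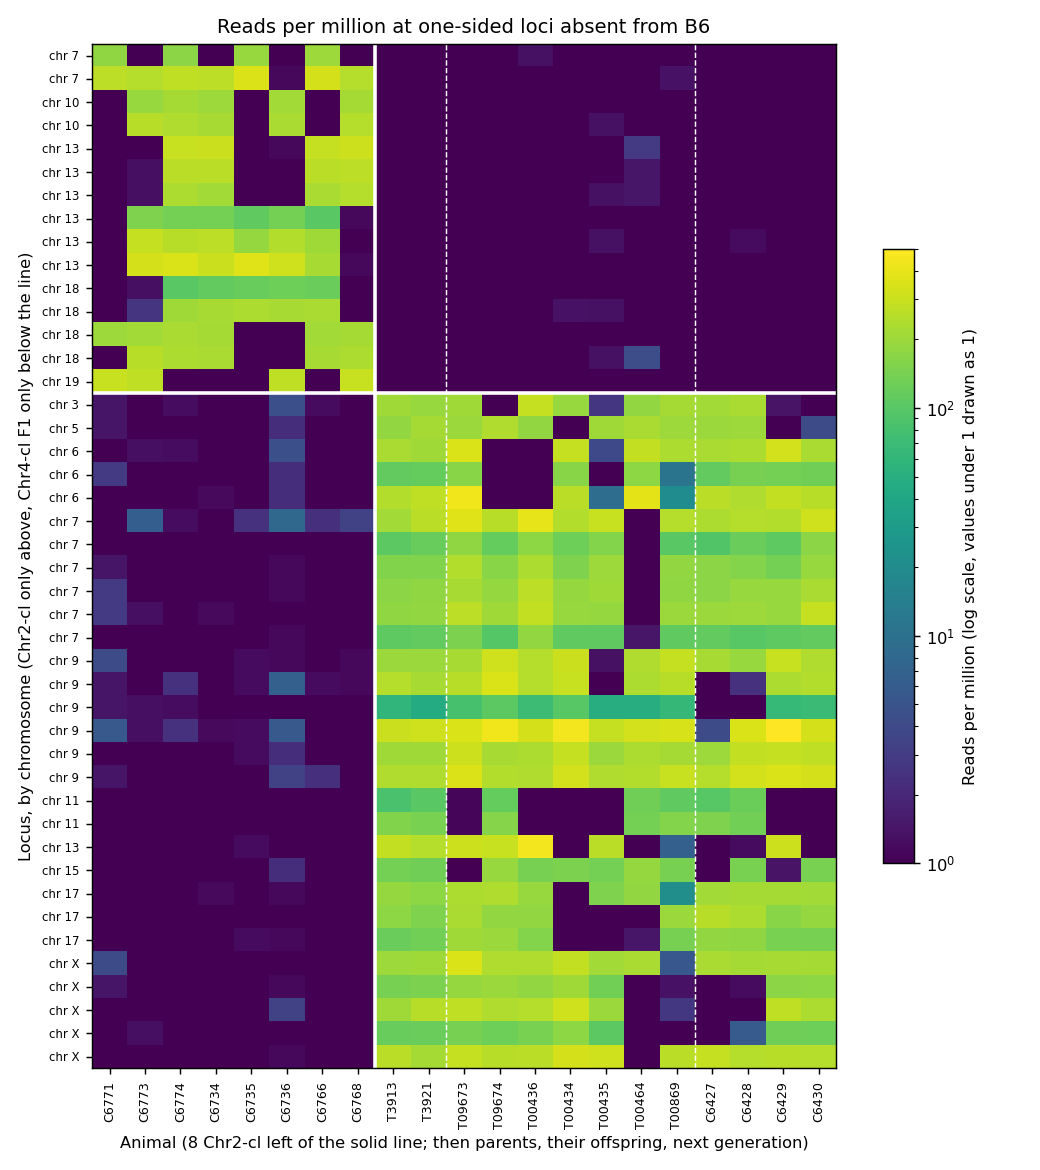
Level of the 44 one-sided non-B6 loci in the 21 animals, in RPM on a log colour scale, with values under 1 drawn as 1. Rows are loci in chromosome order (15 Chr2-cl only above the white line, 29 Chr4-cl F1 only below) and columns are animals, with the 8 Chr2-cl mice left of the line and the 2 parents, 7 offspring and 4 second generation mice to the right. The upper right and lower left fields stay below 10 RPM as the rule requires, and runs of neighbouring loci share their carriers.

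Among 29 pairs of neighbouring one-sided loci of the same class on a chromosome, 18 had the same carriers. The share among pairs on different chromosomes was not computed, and loci carried by nearly all mice can match without linkage. The 6 loci of chromosome 7 had 1 carrier pattern, the 3 of chromosome 6 spanned 53.3 Mb with 1 pattern, and the 6 of chromosome 9 spanned 54.0 Mb with 5 patterns. Loci of a chromosome can be linked and are not treated as independent of each other.

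The one-sided loci were spread unevenly over the chromosomes. The 15 Chr2-cl loci lay on 5 chromosomes, with 2 on chromosome 7, 2 on 10, 6 on 13, 4 on 18 and 1 on 19. The 29 Chr4-cl F1 loci lay on 10 chromosomes, with 6 each on 7 and 9, 5 on X, 3 each on 6 and 17, 2 on 11 and 1 each on 3, 5, 13 and 15. Chromosomes 7 and 13 held both classes. Neither class had a non-B6 locus on chromosome 2 or 4, where 3 and 9 shared loci lay. Chromosomes 1, 8 and 14 held 4, 8 and 6 shared non-B6 loci and no one-sided locus of the non-B6 class, while mixed one-sided loci lay on chromosomes 1, 2, 8 and 14 too. Of the 44 loci 9 lay in genes, 8 of them of the Chr4-cl F1 class. Between genes lay 14 of the 15 Chr2-cl loci, 21 of the 29 Chr4-cl F1 loci and 37 of the 53 shared non-B6 loci.

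**Figure D2:**
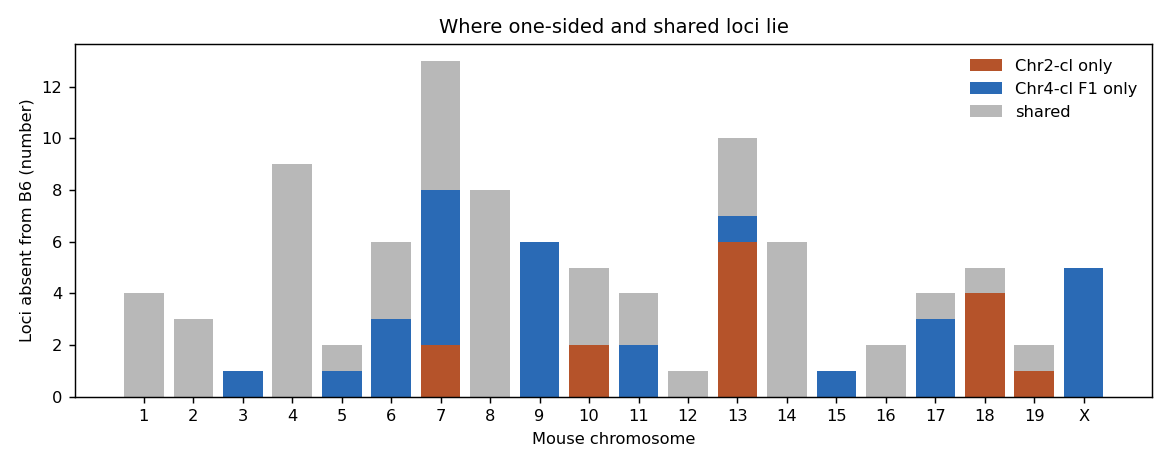
Number of supported non-B6 loci on each mouse chromosome, stacked as Chr2-cl only, Chr4-cl F1 only and shared. Chromosomes 9 and X hold 6 and 5 loci of the Chr4-cl F1 line and no other, and chromosome 13 holds 6 of the 15 Chr2-cl loci.

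A locus can be missing from the Chr2-cl mice because their 129 chromosomes lack it or because they inherited the B6 chromosome there. B6 loci that vary among F2 animals bear on these states but do not settle them. A mouse without the B6 locus can still have a B6 chromosome at that place. The F1 parent T3921, which by descent has a B6 copy of each autosome, held no read at the B6 locus chr6:88523400-88524915. Presence is limited as well, because whether the 129 chromosomes of the Chr2-cl mice hold these B6 loci was not tested. This comparison was chosen after the data were seen. Of the 29 Chr4-cl F1 loci 13 had such a B6 locus within 10 Mb. At 11 of them all 8 Chr2-cl mice called it, and the levels bear on the number of copies. At chr6:31647912-31650379, chr11:92828568-92831622 and chr17:83462182-83465119 the 8 mice held 91.0 to 112% of the mean of B6 libraries, while the F1 parents T3913 and T3921 held 71.2 to 79.3%. At chr6:88523400-88524915 they held 102 to 118%, against 76.9% in T3913 and no read in T3921. At chr9:19411673-19414970 they held 85.3 to 100.4%, against 74.97 and 73.11% in the parents. On the X chromosome a male has a single copy, and at the 3 B6 loci that neighbour Chr4-cl F1 loci the 4 male Chr2-cl mice held 79.9 to 96.0% of the B6 mean. The male parent T3921, which carries the Chr4-cl F1 loci, held 2.55 to 5.04% there. At these places the Chr2-cl mice thus hold the B6 locus at the level of B6 libraries or near it. At chr7:61139183-61141140 they held 74.9 to 95.6%, against 74.2 and 77.0% in the parents, and the number of copies is not clear. The other 2 Chr4-cl F1 loci with such a neighbour lie on chromosome 7 and surround the B6 locus chr7:70969012-70971550, whose LTR end is printed above. C6766 held no read at this B6 locus, C6735 held 1.20 RPM and C6773 held 10.2 RPM, just past the call at 10 RPM, against a mean of 438 RPM over B6 libraries. The other 5 Chr2-cl mice held 294 to 443 RPM.

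C6766, C6735 and C6773 are thus at or near 0 for the B6 locus, and they also lack the Chr4-cl F1 loci on either side of it. Whether they have a B6 chromosome there was not tested. At chr7:66267789-66269989 these 3 mice held no read, where 12 Chr4-cl F1 mice held 198 ± 28.3 RPM (SD, n = 12). At chr7:74339481-74341064 they held 0, 0 and 1.28 RPM against 215 ± 40.8 RPM (SD, n = 12). The distance to the B6 locus was 4699022 and 3367930 bp, and a crossover in between was not tested.

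The Chr2-cl loci give the reverse picture. C6734 held 3.56 RPM at the B6 locus chr13:8766582-8767894, where the B6 mean was 223 RPM, and it carried the 3 proximal Chr2-cl loci of chromosome 13. At the B6 locus chr10:21808633-21816476 C6773 and C6768 held 40.96 and 22.92 RPM, against 525 to 686 RPM in the other 6 Chr2-cl mice and a B6 mean of 750 RPM. Both values pass the call at 10 RPM, so the locus counts as present in them, at 5.46 and 3.06% of the B6 mean. Both mice carried the Chr2-cl loci of chromosome 10.

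Levels differed little among carriers of a Chr2-cl locus. The coefficient of variation over carriers had a median of 5.94% across the 15 loci, with a range of 0.845 to 16.2%. Across the 29 Chr4-cl F1 loci the median was 17.9%, with a range of 7.10 to 40.7%. All 76 carrier values of the Chr2-cl loci lay at 102 RPM or more. Of 306 carrier values of the Chr4-cl F1 loci, 6 lay below 50 RPM. The loci and animals differ between the lines, and this difference was not tested.

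Within the Chr4-cl line the parents serve as a scale. Of the 106 non-B6 loci supported in any 2 main libraries, T3913 and T3921 both called 86, and no locus was called in only 1 of them. The other 20 were called in no Chr4-cl F1 mouse, 15 of them being the Chr2-cl loci. An F1 animal has 1 copy of each 129X1/SvJ autosome, so a cross of such a pair passes a locus to 75% of the offspring. At the 81 autosomal loci of both parents the 7 offspring made 438 of 567 possible calls, or 77.2%. Linked loci are not separate trials, so no interval is given. The share was 76.8% over the 24 one-sided loci among them and 77.1% over the 53 shared loci.

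Where a locus was called, the offspring level divided by the mean of the parents had a median of 1.13, with quartiles of 1.03 and 1.36. The distribution peaked between 1.0 and 1.1, with 118 values, and had a shoulder between 1.3 and 1.7, with 123 values. From 0.2 to 0.7 there was no value. Below 0.1 lay 133 values and from 0.1 to 0.2 lay 3, while 129 values were not called. The share of 77.2% thus includes a few calls far under the level of the parents, the lowest at a ratio of 0.0501.

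**Figure D3:**
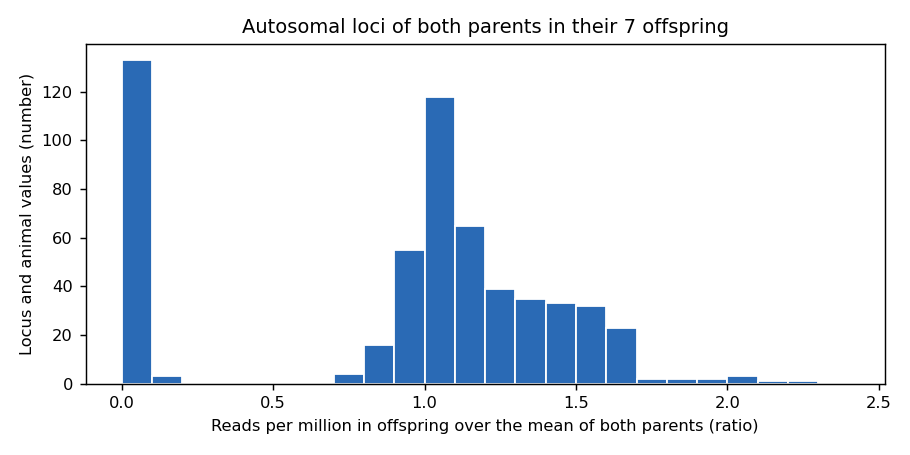
Level in the 7 offspring divided by the mean level of their parents T3913 and T3921, for 81 autosomal loci (567 values), as a histogram with bins of 0.1. Values fall near 0, near 1 and around 1.5, with no value between 0.2 and 0.7.

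The number of non-B6 loci per animal is a description and is given without a test, since the 106 loci include the 44 that the rule chose for absence in 1 line, 15 against 29. They were also found mostly in libraries of Chr4-cl descent, F1 and F2. In the order C6771, C6773, C6774, C6734, C6735, C6736, C6766 and C6768 they called 41, 40, 46, 36, 46, 31, 52 and 47 of the 106 loci, a mean of 42.4 ± 6.74 (SD, n = 8). The Chr4-cl F1 mice called 60 to 86, with a median of 66 and a mean of 68.8 ± 8.99 (SD, n = 13). Of the 91 non-B6 loci supported in F2 libraries Chr2-cl mice called 23 to 40 and Chr4-cl F1 mice 60 to 86. This panel comes from relatives of the Chr4-cl F1 mice and holds no locus of the Chr2-cl class, so the lower counts of Chr2-cl mice follow from how it was chosen.

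The 117 B6 loci that vary among F2 animals were chosen in B6 and F2 libraries, for absence in at least 1 F2 library. F2 animals share the 129 descent of the Chr4-cl F1 mice, so the choice favours loci that these 129 chromosomes lack. Lower counts and levels in Chr4-cl F1 mice thus follow at least in part from the choice. Any panel locus that the 129 chromosomes of the Chr2-cl line also hold would be called there in any case, and this was not tested. Chr2-cl mice called 101 to 113 of the 117 loci, a mean of 108 ± 3.93 (SD, n = 8), and Chr4-cl F1 mice 77 to 116, a mean of 96.8 ± 11.4 (SD, n = 13). The groups overlapped, and the adjusted p of the two-sided exact permutation test of the rank sum was 0.0199. Adjustment was by Benjamini-Hochberg over 5 comparisons, the 2 counts of non-B6 loci included. The test treats animals as exchangeable, but the 13 Chr4-cl F1 mice are of 1 pedigree and the Chr2-cl mice may be relatives. The animals are thus not independent units, and the per-animal p-values can be too small. Over all pairs of 1 mouse from each line, the share with more calls in Chr2-cl exceeded the share with fewer by 61.5 percentage points. The lowest counts of the Chr4-cl line, 77, 82 and 87, were those of its 3 WT mice, which called the fewest B6 loci on chromosome 4. The highest count, 116, was that of T00869. Its calls include chr6:31647912-31650379 and chr11:92828568-92831622 at only 4.74 and 7.21% of the B6 mean. Such low calls also occurred in other mice of both lines. Without T00869 the difference between the shares was 75 percentage points. With only ear libraries, 6 against 6, the adjusted exact p was 0.368.

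At the called B6 loci of this panel the level was also compared, as a percent of the mean of B6 libraries and relative to loci called in every main library. Chr2-cl mice reached 84.8 to 94.4%, a mean of 89.0 ± 3.41 (SD, n = 8). Chr4-cl F1 mice reached 72.7 to 83.3%, a mean of 78.5 ± 3.07 (SD, n = 13), with no overlap and an adjusted exact p of 1.64e-05. The panel was chosen for absence in relatives of the Chr4-cl F1 mice, so this p does not test a difference apart from that choice. The F1 parents, with 1 B6 copy by descent, stood at 72.7 and 75.5%, so this scale is not proportional to the number of copies. The level of called non-B6 loci, as a percent of loci called in every main library, was 38.4 ± 4.21 (SD, n = 8) in Chr2-cl mice and 42.7 ± 2.93 (SD, n = 13) in Chr4-cl F1 mice. The ranges overlapped and the adjusted exact p was 0.0199. It was 0.117 after every library was thinned to the total of the shallowest and 0.300 in ear libraries alone. Strain, deleted cluster, generation and the share of B6 genome differ together between the lines and cannot be told apart in these per-animal values. The mix of tissues differs as well.

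**Figure D4:**
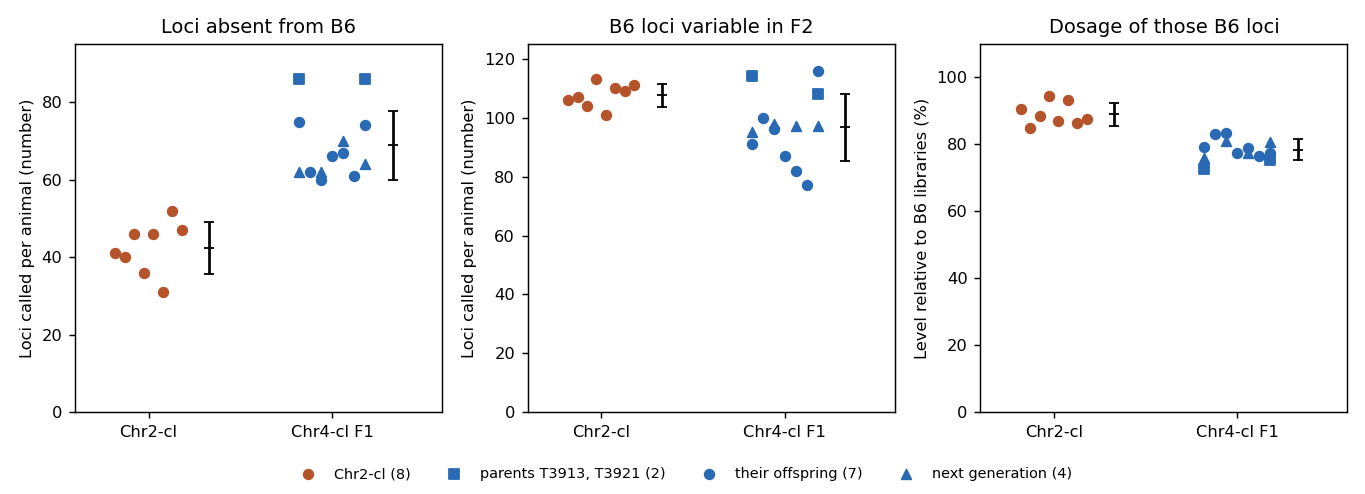
Number of non-B6 loci called per animal (left), number of B6 loci variable in F2 called per animal (middle) and level of those B6 loci relative to B6 libraries in percent (right), for 8 Chr2-cl and 13 Chr4-cl F1 mice. Points are animals, and the black bars give mean and SD. The lines do not overlap in the left panel, whose loci include those the rule chose, nor in the right panel, and they overlap in the middle panel. Loci of the middle and right panels were chosen for absence in F2 relatives of the Chr4-cl F1 mice.

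The 53 shared non-B6 loci had 1 to 8 carriers among the Chr2-cl mice, with a median of 5, and 5 to 12 among the Chr4-cl F1 mice, with a median of 11. Over carriers their median level was 176 RPM in Chr2-cl and 183 RPM in Chr4-cl F1 mice. Loci near a threshold show how the classes are bounded. The weakest locus inside the Chr4-cl F1 class was chr9:48434465-48437090, near Nnmt, with 105 and 100 RPM in its top 2 libraries. Just outside were chr6:19757008-19758817, with 96.6 RPM as its second highest value, and chr17:75498017-75501621, counted as shared for 10.2 RPM in 1 Chr2-cl mouse. On the Chr2-cl side the weakest inside was chr18:6731705-6732790 with 121 RPM as its second highest value, and chr10:44727475-44728545 stayed outside with 99.6 RPM and no read in the other line.

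The absent sides were not entirely free of reads. Of the 15 Chr2-cl loci 6 held no read in any Chr4-cl F1 library, and the highest value there was 4.33 RPM, which is 3 reads in T00464. Of the 29 Chr4-cl F1 loci 4 held no read in any Chr2-cl library. C6736 held at least 1 read at 20 of the 29 and C6771 at 13, against 3 to 7 in the other 6 mice, and the source of these reads was not tested.

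The 20 mixed one-sided loci are not settled as 129 loci, since some B6 libraries called them. Of the 7 in Chr2-cl mice, 5 were called in a single B6 library, and in 3 of these it was T2379. On chromosome 2, chr2:21142443-21143680 and chr2:54375075-54376244, the latter in an intron of Galnt13, were each carried by 4 Chr2-cl mice with 291 and 286 RPM on average. The B6 library T2682 held 301 and 300 RPM there, and no Chr4-cl F1 or F2 library called either locus. At chr15:22560323-22562191, in an intron of the cadherin gene Cdh18, 6 Chr2-cl mice held 170 RPM on average. No Chr4-cl F1 mouse called it, while 24 F2 and 2 B6 libraries did.

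Of the 13 mixed loci of the Chr4-cl F1 line, 6 were called in no F2 library and 7 in at least 1. At chr14:11609249-11610688, in an intron of the tumour suppressor gene Fhit, 6 Chr4-cl F1 and 12 of 16 B6 libraries called the locus, with 257 and 279 RPM on average, and no F2 or Chr2-cl library did. At chr17:44205448-44208490, 7271 bp from Enpp5, 11 Chr4-cl F1, 39 F2 and 8 B6 libraries called the locus, again with no call in a Chr2-cl mouse. These loci vary among libraries that share the label B6.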

How the data were processed

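The authors aligned each mate alone to mm9 with Bowtie, used SAMtools against duplicates and bedtools to merge reads up to 1000 bp apart. They retained unique reads whose mate hit an ETn. The sources used here give no versions. What they deposited is, for each library, the raw read count of each region, without normalization or pooling. Each count was divided by its library total to give RPM, which makes samples of unequal depth comparable but lets strongly captured loci lower the rest.

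Regions at 10 RPM or more in any library that lay within 1000 bp were joined into loci, and reads of all overlapping regions were summed. A fall below 10 RPM is absence at this depth, and a count of 0 allows up to 3 reads, or 3.32 to 4.33 RPM. No region ran past a chromosome end of the NCBIM37 (mm9) reference. Genes came from GENCODE vM1 of that build, by overlap or else the nearest protein-coding gene. Probe sequences, from the study's supplement, were searched against it with blastn 2.17.0 at an e-value of 1e-10. Tests ran in Python 3.11.15 with numpy 2.4.6 as exact permutations over all 203490 assignments of 8 among 21 animals, two-sided, with a threshold of 0.05 on the adjusted p. The class rules and the test were tested on simulated data. Loci named in the text are the 6 of each class with the most carriers, those over exons and those nearest the thresholds. The other named loci were picked after their values were seen. Members and lists were chosen with earlier results of these data known. Captured reads carry no molecular identifiers, so floors cover counting error only. Alternatives were other thresholds, joining distances, scales, chromosomes and libraries.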

Additional observations from a re-analysis of the deposited data

Results flagged for a closer look

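Signals outside the compared lines were found at 5 non-B6 loci that held 100 RPM or more in at least 2 F2 libraries and that neither the Chr2-cl nor the Chr4-cl F1 mice called. The locus chr13:64195923-64198621 was called in 30 of 39 F2 libraries, with 261 RPM on average over carriers. The locus chr6:83408053-83410366 was called in 16, with 307 RPM. The loci chr11:46034231-46035369, chr6:51549777-51550984 and chr15:55654317-55655079 were called in 6, 3 and 2 F2 libraries. No B6 library held a read at any of the 5. Their highest value in a mouse of either line was 2.27 RPM, at the chromosome 13 locus.

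No animal stood apart from its group by Dixon's test in 15 combinations of group and measure, over the 8 Chr2-cl mice, the 7 offspring of T3913 and T3921 and the 4 of T09673 and T00869.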

How the results depend on the processing

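The numbers of one-sided and shared loci depend on the support asked for and on how absence is defined. With support of 200 RPM the Chr4-cl F1 class fell to 19 and the shared class to 31. At 50 RPM the Chr2-cl, Chr4-cl F1 and shared classes held 18, 33 and 64 loci. Without the B6 library T2379 they held 18, 29 and 54. If absence means no read at all, 6 Chr2-cl and 4 Chr4-cl F1 loci remained. In tail libraries alone, an alternative added after seeing the data with 2 against 5 animals, the Chr2-cl class held 6 loci. The Chr4-cl F1 class held 34 in those libraries. With a call at 20 RPM, 1 B6 locus was absent from the Chr4-cl F1 line. Leaving out 1 animal at a time gave 15 Chr2-cl, 28 to 30 Chr4-cl F1 and 51 to 53 shared loci, and 0 to 2 B6 loci absent from the Chr4-cl F1 line, the 2 without T00869.

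Over the other alternatives the effect, the percent of animal pairs in which Chr2-cl was higher minus the percent in which it was lower, kept its sign in all 5 measures per animal, of which the 2 counts of non-B6 loci are descriptions set by the choice of loci. For the other 3, leaving out 1 animal at a time kept every adjusted p below 0.05, at most 0.0456. Among these, the count and the level of B6 loci depend on a panel chosen in relatives of the Chr4-cl F1 mice. For the number of B6 loci the effect lost significance at a call of 5 RPM (48.1, adjusted exact p = 0.0720) and in ear libraries (33.3). For the level of non-B6 loci it did so after thinning (-42.3), with support of 200 RPM (-46.2), without chromosomes 2, 4, X and Y (-46.2), in ear libraries (-44.4) and, added later, without chromosomes X and Y (-51.9). In tail libraries the effects were -100, -100, 100, -80 and 100, and the smallest exact p that 2 against 5 animals can give, 0.0952, cannot pass the threshold. No paired analysis was possible because replicate numbers follow accession order and pair no animals. At this depth a count of 0 allows up to 4.33 RPM in the shallowest library.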
